A study of Rattus norvegicus with 6 samples.

Results

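The genes described here are 44 genes of the neuronal cytoskeleton, axon, adhesion and neuronal RNA processing, chosen by symbol. For each gene, the probe set of highest mean log2 signal over the 6 arrays was used, among those annotated to 1 symbol only. A probe set of this kind was present for 42 of the 44 genes, out of 14217 genes on the array, and Nova1 and Ephb2 had none. Of the 42 genes, 33 lay at or above the signal filter and were tested and 9 lay below it. Signal level thus chose the probe set and the tested genes and is given only as a description. The difference between the groups entered neither of these steps, but the 44 genes were listed with earlier results of these data known. Their counts against all genes therefore describe the list and are no independent test.

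The cells were GH4C1, a single line derived from a rat pituitary tumour, with somatolactotroph character (growth hormone and prolactin production). All cultures had been incubated for 16 h with lentiviral particles at a multiplicity of infection of 5 and polybrene, then grown for 4 days. In 3 cultures the vector carried POU1F1(R271W), named in the series title as a dominant negative mutant of POU1F1, a pituitary transcription factor. EGFP followed it behind an internal ribosome entry site. The other 3 cultures were controls, and the design text gives an EGFP vector without the mutant for them. The PGK promoter, which is active in most cell types, drove both constructs. RNA of each culture was read on 1 Affymetrix rat array. The replicates are labelled biological, without a statement that the cultures were transduced separately. The p-values therefore measure the spread between these samples, which may be technical. In RNA of whole cultures, fewer cells of a type and less RNA per cell cannot be told apart.

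Neurons and endocrine cells share many genes, since both release stored signals from vesicles and hold an excitable membrane. In neurons, tubulin, microtubule-associated proteins and neurofilaments build the axon, kinesins carry cargo along it, and growth-cone proteins steer its tip. Adhesion molecules and guidance receptors read the surroundings, and neuronal RNA-binding proteins set splicing and the stability of transcripts. Pituitary cells do not form axons, but several of these genes are known to be expressed in endocrine cell lines.

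For 27 of the 44 genes a RefSeq promoter sequence of the GRCr8 assembly was at hand. The sequences of Dclk1 and Elavl4, the genes with the largest rises, and Cntn1, the gene that fell, are shown because a transcription factor was the agent. Each holds the 250 bases before the annotated gene start, 5′ to 3′ on the gene's strand. Capitals mark a match to the left arm of the binding element of REST (TTCAGCACC or its reverse complement), a repressor of neuronal genes.
Dclk1, chr2:141782634-141782883, plus strand: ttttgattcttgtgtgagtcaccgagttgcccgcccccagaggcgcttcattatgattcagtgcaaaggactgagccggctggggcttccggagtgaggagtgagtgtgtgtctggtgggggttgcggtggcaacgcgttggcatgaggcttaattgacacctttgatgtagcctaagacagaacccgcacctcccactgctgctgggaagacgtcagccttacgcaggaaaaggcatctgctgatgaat
Elavl4, chr5:130367664-130367913, minus strand: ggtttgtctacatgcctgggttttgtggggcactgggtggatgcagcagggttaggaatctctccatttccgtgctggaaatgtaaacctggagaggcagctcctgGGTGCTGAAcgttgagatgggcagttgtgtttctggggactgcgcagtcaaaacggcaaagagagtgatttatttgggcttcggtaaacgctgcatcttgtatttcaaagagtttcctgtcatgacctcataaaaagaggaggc
Cntn1, chr7:125252060-125252309, plus strand: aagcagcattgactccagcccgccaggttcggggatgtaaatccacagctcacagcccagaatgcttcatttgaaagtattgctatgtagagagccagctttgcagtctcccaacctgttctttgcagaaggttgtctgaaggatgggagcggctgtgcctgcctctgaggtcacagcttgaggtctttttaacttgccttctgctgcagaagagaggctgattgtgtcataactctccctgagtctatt
The POU1F1 core motif TATNCAT, searched on both strands over the same 250 bases, is in none of these sequences. It was present in 1 of the 27 genes (Rbfox1) and in 8.73% of all 33469 promoter windows. The REST arm was present in 1 of the 27 genes (Elavl4) and in 0.305% of all windows. No gene of the 27 held both motifs. A match describes letters in a window, not a binding site.

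Array medians ran from 22.4 to 22.9 in controls and from 25.5 to 26.9 in R271W cells, and precision is limited by the number of arrays. On the log2 scale the hybridisation spikes were 0.22 higher in R271W arrays (median of 18 probe sets). The 3'/5' signal ratio of beta-actin was 1.81 to 1.82 in controls and 1.86 to 2.06 in R271W cells. The part of either in the differences below was not tested. The cell label was checked against pituitary markers: Gh1, Prl and Pou1f1 had signals of 1738 to 7287, while Ghrhr and Drd2 lay below the filter. Summed signals of these 5 markers were 12652 to 13713 in controls and 10496 to 12418 in R271W cells. Prl fell (log2 -0.45, adjusted p = 0.00048), as did Pou1f1 on both probe sets (-0.33 and -0.35), while Gh1 read -0.03 (interval -0.22 to 0.15). Whether the Pou1f1 probe sets also detect the transduced transcript was not tested. Defining markers of other cell types were mostly near the bottom of the scale. Of 14 listed markers of synaptic neurons 13 had a probe set and 6 were tested, with summed signals of 1433 to 1521 in controls and 1434 to 1642 in R271W cells and 0 past the limma threshold (1, Syt1, at an unadjusted p under 0.05, which 33.4% of all genes passed). In that list Rbfox3, Slc17a7, Gad2, Slc32a1, Camk2a and Chat were below the filter, whereas Snap25 and Gad1 had mean signals of 782 and 383 in controls. Slc17a6, a vesicular glutamate transporter gene, was also below the filter. Its signals were 0.518, 1.91 and 12.1 in controls and 39.2, 32 and 38.1 in R271W cells, and without the filter its limma adjusted p was 0.019. Of 6 fibroblast markers only Dcn lay above the filter, and it fell (log2 -1.20), so that summed fibroblast signals were 2727 to 2894 in controls and 1195 to 1272 in R271W cells. Of 5 oligodendrocyte markers with a probe set Mbp and Mag were tested and did not pass. Mbp was not dim, with mean signals of 233 in controls and 246 in R271W cells. The oligodendrocyte sums were 268 to 280 and 246 to 332. Among macrophage markers only Csf1r was tested and it did not pass, with sums of 41.7 to 70.4 and 38 to 58.1. Endothelial markers with a probe set lay below the filter, as did the astrocyte markers other than Slc1a3. Summed astrocyte signals were 147 to 166 in controls and 86.5 to 97.8 in R271W cells, mostly from Slc1a3, which fell (-1.18). The part of these markers in the differences below was not tested.

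Of the 33 tested genes 11 rose and 1 fell in R271W cells at an adjusted p under 0.05 (limma over all probe sets, Benjamini-Hochberg). Over all 10143 genes tested in the same way, 9.87% rose and 8.98% fell. The genes that rose were Dclk1, Elavl4, Basp1, Map2, Ntrk2, Nrcam, Nefm, Stmn2, Mapt, Tubb3 and Dpysl2, and the gene that fell was Cntn1. The 33 log2 differences had a median of 0.43 and ran from -1.29 to 1.89, against a median of 0.06 for all genes. The median was 0.26 without R271W replicate 1, and the lowest value was -0.73 without R271W replicate 3. The arrays of the groups did not overlap in 15 of the 33 genes with R271W above and in 1 with R271W below, against 21.2% and 16.6% of all genes. More of the 33 genes rose than fell under each scaling, but the number that rose, and the balance over all genes, depended on it. When each array was centred on its median, which lowers every log2 difference by the same amount and puts the median of all genes at -0.14, 7 of the 33 rose and 1 fell, and their median was 0.24. On that scale 4.35% of all genes rose and 20.4% fell. Where limma was fitted with no intensity trend, 4 rose and 1 fell, against 3.57% and 2.81% of all genes.

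**Figure D1:**
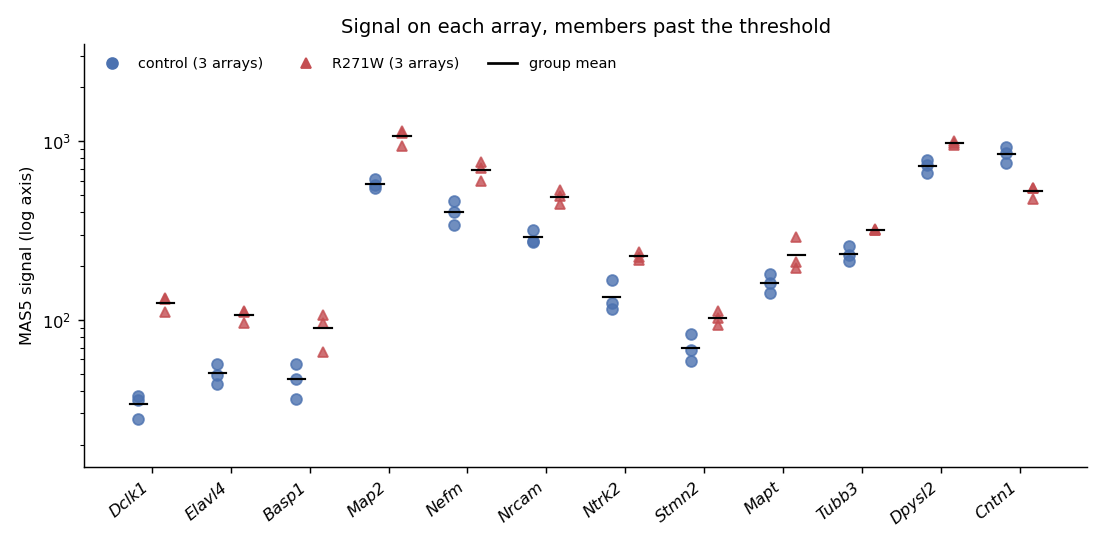
MAS5 signal (log axis) of the 12 genes past the threshold on each of 3 control arrays (circles) and 3 R271W arrays (triangles), with group means as bars, ordered by log2 difference. In each gene but Cntn1 the R271W arrays lie above the controls, by 1.89 on the log2 scale for Dclk1 and by 0.43 for Dpysl2, while Cntn1 is lower by 0.69.

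Of 7 tested microtubule genes 5 rose and 0 fell, against 9.87% and 8.98% of all genes. Their median log2 difference was 0.51. All 7 values were above 0, but 2 of them turned below 0 under median centring. Dclk1, which encodes doublecortin-like kinase, a microtubule-binding kinase, had the largest change. Its signals were 27.7, 37.7 and 35.6 in controls and 111, 130 and 132 in R271W cells. The groups were far apart, a 3.72-fold difference (log2 1.89, SE 0.19, adjusted p = 3.37e-05). Both other tested probe sets of Dclk1 also rose, by 1.87 and 1.36 on the log2 scale. Its relative Dcx, which encodes doublecortin, lay below the filter, with signals from 0.378 to 18.6.

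Map2 encodes the dendritic microtubule-associated protein and gave signals of 545, 612 and 571 in controls and 1108, 1140 and 941 in R271W cells. All R271W arrays were above all controls, with a log2 difference of 0.88 (SE 0.09, adjusted p = 2.9e-05). Another Map2 probe set, marked in its name as matching alternative transcripts, read 0.37 with overlapping arrays and did not pass (adjusted p = 0.139). Tubb3, the neuronal beta-tubulin, had signals of 258, 230 and 214 in controls and 317, 317 and 321 in R271W cells (log2 0.45, adjusted p = 0.0085), again with separate groups. Its probe set carries the suffix for probes that can match more than 1 gene of a family, so other tubulins may add to its signal. Under median centring the Tubb3 difference was 0.25 and did not pass (adjusted p = 0.111), nor did it pass with no intensity trend (0.0714).

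Mapt, which encodes tau, the axonal microtubule-associated protein, had signals of 160, 181 and 142 in controls and 194, 210 and 290 in R271W cells. The groups did not overlap, but the third R271W array stood well above the others (log2 0.51, adjusted p = 0.0372). This probe set is also marked in its name as matching alternative transcripts. The other tested Mapt probe sets read 0.48 (limma adjusted p = 0.345) and 0.22 (0.649), with arrays that overlapped. Stmn2, which encodes SCG10, a microtubule-destabilising protein of growing axons, had signals of 83.1, 67.6 and 58.9 in controls and 102, 112 and 93 in R271W cells. These are close but separate ranges (log2 0.56, adjusted p = 0.0441). Both calls were lost under each of the other scalings, with adjusted p values of 0.0656, 0.0894 and 0.201 for Mapt and 0.0955, 0.0786 and 0.166 for Stmn2 under quantile normalization, 75th percentile centring and median centring. The call of Mapt also ended without control replicate 1 (0.0877) or 3 (0.137) and without R271W replicate 2 (0.057) or 3 (0.133), where its log2 difference was 0.33 in the last case. That of Stmn2 ended without control replicate 2 (0.105) or 3 (0.149) and without R271W replicate 1 (0.0957) or 2 (0.145). With no intensity trend neither gene passed (limma adjusted p = 0.169 for Mapt and 0.0976 for Stmn2).

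The remaining microtubule genes did not pass. Stmn3, a relative of Stmn2, had signals of 830, 775 and 743 in controls and 837, 831 and 872 in R271W cells. The R271W arrays lay above the controls only narrowly, with a log2 difference of 0.11 (95% interval -0.05 to 0.28, adjusted p = 0.345). Map1b, a microtubule-associated protein of growing axons, read 0.12 (interval -0.14 to 0.38) with arrays that overlapped.

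Among the neurofilament genes, which encode the subunits of the axonal intermediate filament, 1 of 4 rose and 0 fell. Over all genes 9.87% rose and 8.98% fell. Nefm, the medium subunit, had signals of 401, 460 and 339 in controls and 767, 598 and 707 in R271W cells. Every R271W array was above every control (log2 0.79, SE 0.12, adjusted p = 0.00055), although the adjusted p was 0.0507 in the fit with no intensity trend. Nefh, the heavy subunit, had signals of 449, 473 and 567 in controls and 623, 623 and 564 in R271W cells. The highest control array overlapped the lowest R271W array (log2 0.29, adjusted p = 0.0621), and the call was made in some other settings, among them quantile normalization (0.35, adjusted p = 0.0261). Nefl, the light subunit that neurofilaments need to assemble, read -0.18 (interval -0.61 to 0.25) and its other probe set -0.21. Ina, which encodes alpha-internexin, read 0.04 (interval -0.19 to 0.27). The values of the 4 subunit genes ran from -0.18 to 0.79, and differences between them were not tested.

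The kinesin genes, which encode motors of axonal transport, had 0 of 3 past the threshold, where 9.87% of all genes rose and 8.98% fell. All 3 read above 0, at 0.79 for Kif5a (adjusted p = 0.118), 0.45 for Kif1a (0.303) and 0.13 for Kif5c (0.748). At an unadjusted limma p under 0.05, 1 of the 3 (Kif5a) passed, as did 33.4% of all genes. Kif5a had signals of 20.7, 32 and 17.2 in controls and 39, 39.8 and 37.8 in R271W cells. Kif1a had signals of 26.1, 26.5 and 34.4 in controls and 42.3, 39 and 36.8 in R271W cells. In both genes the R271W arrays were above the controls, at signals low enough for the intervals to be wide (0.10 to 1.48 for Kif5a, -0.14 to 1.04 for Kif1a). Kif5c had signals of 69.3, 49.1 and 47.8 in controls and 59.4, 68.1 and 52.4 in R271W cells, which overlapped. Its value turned to -0.02 under quantile normalization and -0.07 under median centring.

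Growth-cone genes had 2 of 4 tested that rose and 0 that fell, against 9.87% and 8.98% of all genes. Their median was 0.46. Basp1 encodes a membrane-bound protein of axon endings that is related in function to GAP43. Its signals were 56.6, 36.2 and 46.8 in controls and 96.1, 107 and 66.1 in R271W cells. The ranges were separate, with a log2 difference of 0.94 (SE 0.23, adjusted p = 0.0141). That call ended without control replicate 2 (0.77, adjusted p = 0.0554), R271W replicate 1 (0.88, 0.0551) or R271W replicate 2 (0.80, 0.0729), and in the fit with no intensity trend (0.0829).

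Dpysl2 encodes CRMP2, a tubulin-binding mediator of semaphorin signalling. It had signals of 781, 661 and 734 in controls and 951, 982 and 1002 in R271W cells, again without overlap (log2 0.43, SE 0.08, adjusted p = 0.00241). Under median centring it read 0.24 (adjusted p = 0.0732), and with no intensity trend its adjusted p was 0.0724. Its relative Crmp1 had signals of 289, 259 and 292 in controls and 413, 363 and 274 in R271W cells. Here the third R271W array lay within the controls (log2 0.30, adjusted p = 0.147), and without that array Crmp1 read 0.47 (adjusted p = 0.0104). Gap43, the classic growth-cone protein gene, was dim, with signals of 13.3 to 43.2, and read 0.49 (interval -0.51 to 1.48). Dpysl3 lay below the filter.

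Among the neuronal RNA-binding genes 1 of 5 tested rose and 0 fell, against 9.87% and 8.98% of all genes. Their median of 0.06 equals the median of all genes. Elavl4 encodes HuD, a neuronal protein that stabilises transcripts and is known to bind Gap43 mRNA. Its signals were 49.4, 56.9 and 43.9 in controls and 112, 95.4 and 111 in R271W cells, which did not overlap (2.12-fold, log2 1.09, SE 0.18, adjusted p = 0.00106). Its relatives Elavl2 and Elavl3 were dim and read 0.19 (interval -1.05 to 1.42) and -0.36 (interval -1.52 to 0.80). Those intervals are too wide to place them against Elavl4. Celf4, a neuronal splicing and translation factor, had signals of 343, 334 and 417 in controls and 370, 352 and 419 in R271W cells. Its groups overlapped (0.06, interval -0.17 to 0.30) and its sign turned under median and 75th percentile centring. Rbfox1, a neuronal splicing factor, read 0.03, and its other tested probe sets read 0.26 and -0.56 without passing.

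Of 5 tested adhesion genes 1 rose and 1 fell, where 9.87% of all genes rose and 8.98% fell. Nrcam encodes a neuronal adhesion molecule of the L1 family. Its signals were 272, 318 and 277 in controls and 492, 536 and 443 in R271W cells (log2 0.76, SE 0.10, adjusted p = 0.000243). Every R271W array stood above every control on all 3 Nrcam probe sets, which rose by 0.76, 0.75 and 1.10 on the log2 scale. Cntn1 encodes contactin-1, a membrane-anchored adhesion molecule of axons that binds L1-family proteins. It had signals of 926, 861 and 752 in controls and 472, 548 and 550 in R271W cells, where all R271W arrays were below the lowest control. Its log2 difference was -0.69 (SE 0.10, adjusted p = 0.000313), and it was below 0 and past the threshold under every alternative run.

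The other L1-family gene tested, L1cam, had signals of 22.9, 27.1 and 3.68 in controls and 41.9, 25.2 and 30.9 in R271W cells. A single low control array makes its value of 1.28 imprecise (interval -0.09 to 2.65, adjusted p = 0.201), and without that array, control replicate 3, it was 0.36. Ncam1, the neural cell adhesion molecule, had signals of 27.6, 20.1 and 37.3 in controls and 38.2, 38.3 and 41 in R271W cells (0.51, adjusted p = 0.289). Thy1, a surface glycoprotein of neurons, read -0.20 (interval -0.47 to 0.07) and 0.01 on its other probe set. Chl1, Nrxn3 and Nlgn1, which encode an L1-family molecule and a pair of synaptic adhesion proteins, lay below the filter.

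Guidance and neurotrophin receptor genes had 1 of 4 tested that rose and 0 that fell, against 9.87% and 8.98% of all genes. Their median was 0.15. Leaving out control replicate 1 brought that median to -0.02, and leaving out R271W replicate 3 brought it to 0.00. Ntrk2 encodes TrkB, the receptor for brain-derived neurotrophic factor. It had signals of 167, 115 and 124 in controls and 217, 225 and 239 in R271W cells. The groups were separate (log2 0.76, SE 0.14, adjusted p = 0.00243), with an adjusted p of 0.0547 without the intensity trend. Another Ntrk2 probe set, at signals of 41.6 and 64.4, read 0.63 with separate groups (adjusted p = 0.0567). The one marked as matching alternative transcripts read 0.11 (interval -0.18 to 0.40, adjusted p = 0.641) at signals of 145 and 158. Ntrk2 is known to have full-length and truncated forms, and which of them each probe set detects is not given in the sources used here.

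Robo1, a receptor for Slit proteins, had signals of 55.5, 79 and 55.6 in controls and 54.3, 58.6 and 46.6 in R271W cells, which overlapped (-0.24, interval -0.70 to 0.22). Robo2 read 0.55 and Sema3a, which encodes a secreted repellent, -1.29 (interval -2.82 to 0.24), both at dim signals. The Sema3a signals were 20.5, 30.7 and 15.7 in controls and 16.7, 15.5 and 2.6 in R271W cells, and without R271W replicate 3, the lowest array, the value was -0.41. Without the same array Robo2 read 0.16. Sema6a, Epha5 and Ntrk3 lay below the filter.

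Uchl1, a ubiquitin hydrolase abundant in neurons and endocrine cells, had signals of 1493, 1691 and 1729 in controls and 1614, 1573 and 1588 in R271W cells. These overlapped, and the interval of its difference (-0.19 to 0.12 around -0.04) was among the narrower ones. Neurod1, a transcription factor of neurons and endocrine cells, lay below the filter, with signals of 8.32, 8.26 and 9.29 in controls and 16.6, 8.71 and 4.43 in R271W cells.

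The 9 genes below the filter had signals from 0.305 to 18.6, where MAS5 values scatter widely, and without the filter their limma adjusted p values ran from 0.515 to 0.999, where 6.24% of all genes rose and 5.8% fell. On either side of the filter signal of 11.2 stood Neurod1 and Sema6a, with geometric mean signals of 8.62 and 7.22, and Elavl2 and Sema3a, with 13 and 13.7.

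**Figure D2:**
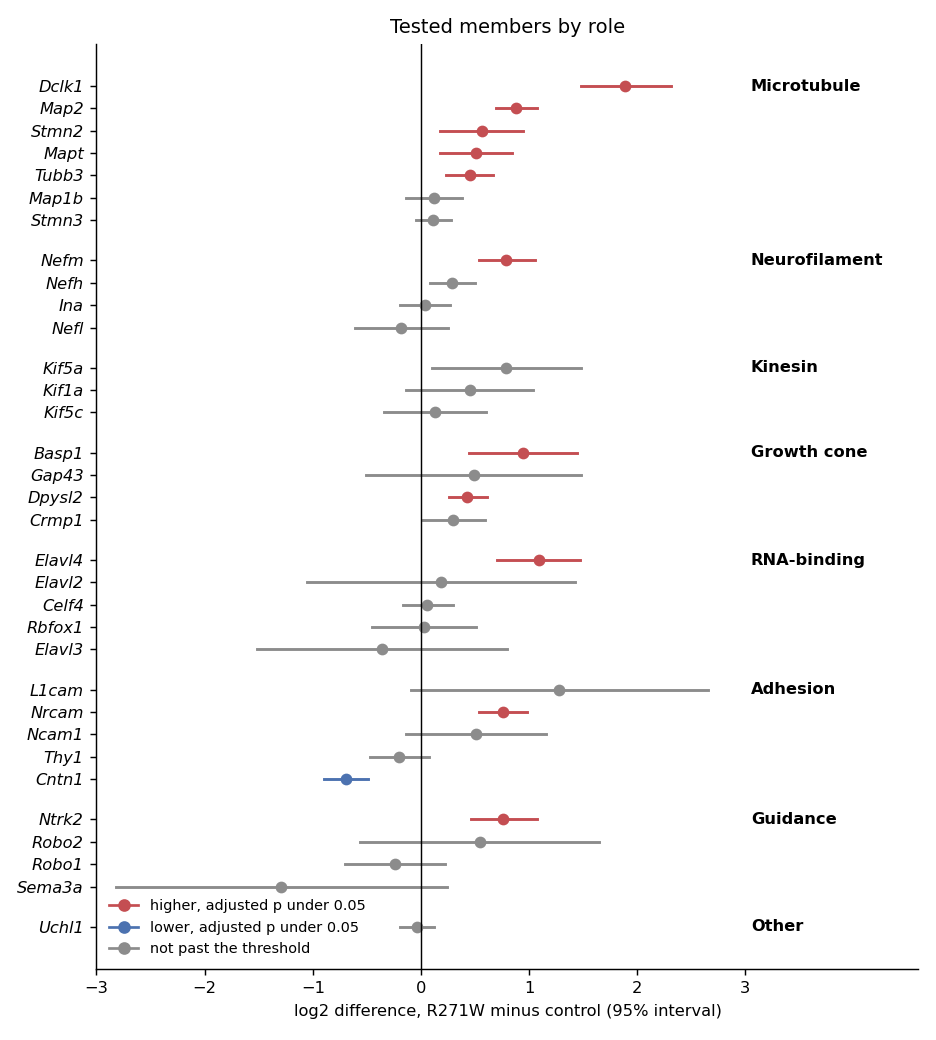
Log2 difference (R271W minus control) with its 95% interval for the 33 tested genes, grouped by role; red marks genes called higher, blue lower and grey neither. The 7 microtubule and 3 kinesin genes lie above 0 on this scale (5 and 2 of them under median centring), while adhesion holds both Nrcam at 0.76 and Cntn1 at -0.69 and guidance runs from -1.29 (Sema3a, -0.41 without R271W replicate 3) to 0.76.

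The counts by role are set side by side here, where 9.87% of all genes rose and 8.98% fell. Cytoskeletal and motor genes together had 6 of 14 that rose and 0 that fell (median 0.45), growth-cone genes 2 of 4 and 0 (0.46), RNA-binding genes 1 of 5 and 0 (0.06), adhesion genes 1 and 1 of 5 (0.51) and guidance genes 1 of 4 and 0 (0.15). The adhesion median rests on dim genes, since L1cam and Ncam1 did not pass. Under median centring the medians were 0.25, 0.26, -0.13, 0.31 and -0.04, against -0.14 for all genes, so the sign of the RNA-binding and guidance medians turned. The RNA-binding median was also below 0 under 75th percentile centring (-0.02) and the guidance median under quantile normalization (-0.01). Single arrays moved the growth-cone median as far as 0.73 (without R271W replicate 3) and the adhesion median as far as 0.29 (without control replicate 2). These are descriptions of few genes and no difference between roles was tested.

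Where a gene had several probe sets, they serve as a check on whether its call depended on the one chosen. The 42 genes had 89 probe sets, of which 54 were tested, 15 were called higher and 1 lower, against 8.57% and 7.22% of all probe sets. Of 14 genes with more than 1 tested probe set, 9 had the same sign on each. Dclk1 and Nrcam were called on all 3 of their tested ones, whereas Map2, Mapt, Stmn2 and Ntrk2 were called only on the probe set with the highest mean signal, with the others above 0. The calls of Map2, Mapt, Stmn2 and Ntrk2 thus depended on which probe set was read. The 5 genes with mixed signs were Map1b, Ina, Elavl3, Rbfox1 and Thy1, none of them called, and in Map1b the value turned only within rounding of 0. Dim probe sets below the filter read -1.06 for Tubb3, -0.84 for Basp1 and -0.13 for Ntrk2, against the sign of the called ones, and were not tested. When the log2 signals of a gene's tested probe sets were averaged, 9 genes rose and 1 fell, against 8.73% and 8.3% of all genes in that fit, and Mapt (0.40, adjusted p = 0.133) and Stmn2 (0.42, adjusted p = 0.153) no longer passed.

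**Figure D3:**
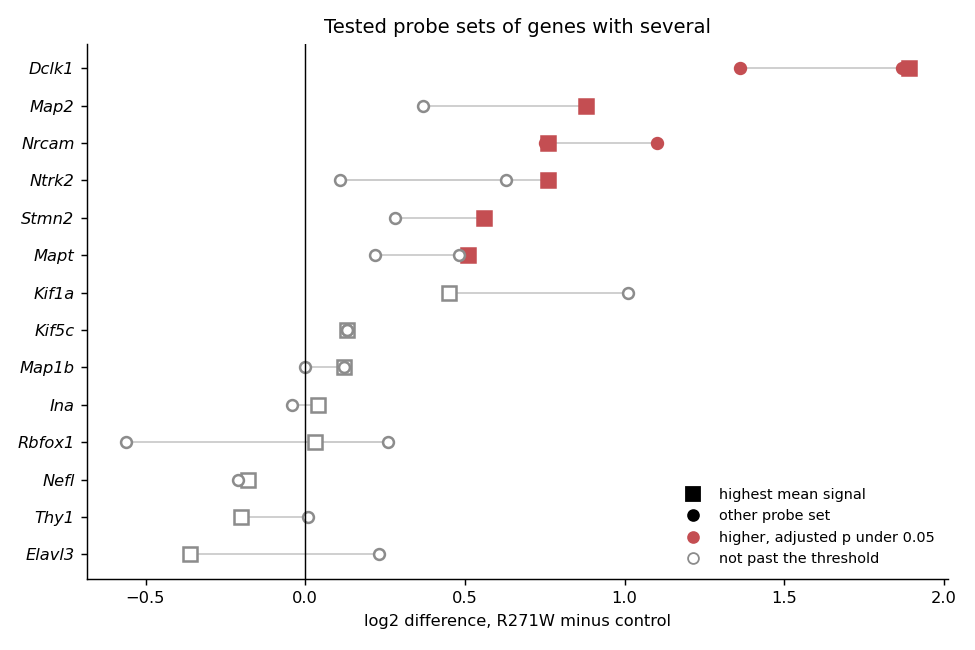
Log2 difference of each tested probe set in the 14 genes that had several; squares are the probe set with the highest mean signal, circles the others, and filled red symbols passed the threshold. All 3 probe sets of Dclk1 (1.36 to 1.89) and of Nrcam (0.75 to 1.10) passed, while those of Rbfox1 spread from -0.56 to 0.26.

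Genes of the same pathways outside the 44 were read from lists made from their known roles, also with earlier results of these data known. Of 261 listed genes 213 had a probe set, 142 were tested, 28 rose and 10 fell, with a median of 0.16, against 9.87% and 8.98% of all genes. With arrays centred on their medians 13 rose and 23 fell, against 4.35% and 20.4% of all genes on that scale. With no intensity trend 10 rose and 1 fell, against 3.57% and 2.81% of all genes. In the microtubule list 6 of 32 rose and 3 fell. Camsap3, which caps microtubule minus ends, went from a mean signal of 52 ± 5.17 (SD, n = 3) to 116 ± 12.1 (log2 1.15, adjusted p = 0.000534), and Mapre3, an end-binding protein, rose by 0.63, with a dimmer probe set at -0.64 that did not pass (adjusted p = 0.416). Pafah1b1, which encodes the dynein regulator LIS1, fell from 232 ± 18.8 to 153 ± 17.7 (log2 -0.60, adjusted p = 0.00447, and 0.0559 with no intensity trend). Among intermediate filament genes the single one tested, Sync (syncoilin), passed only narrowly (0.32, adjusted p = 0.0499). Under median centring it read 0.12 (adjusted p = 0.509) and did not pass, nor did it without any single array other than R271W replicate 1 (adjusted p from 0.0709 to 0.181).

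Among motor genes 3 of 16 rose and 0 fell, against 9.87% and 8.98% of all genes. The 3 that rose were Dync1i2, a dynein intermediate chain (0.55), and the kinesin-2 genes Kif3c (0.56) and Kif3a (0.83). The call of Kif3a ended without control replicate 1 (0.0552) or 2 (0.0708) and without R271W replicate 1 (0.0982). The growth-cone list had 7 of 14 that rose and 0 that fell, with a median of 0.46. Fez1, which encodes a kinesin adaptor of axon outgrowth, went from 52.2 ± 1.78 to 118 ± 11.9 (log2 1.17, adjusted p = 0.000351), Dbn1, the actin-binding drebrin, from 339 ± 69.9 to 568 ± 23.3 (0.77) and Marcksl1, a relative of the membrane substrate MARCKS, from 810 ± 25.1 to 1123 ± 16.4 (0.47). Under median centring 3 of the 14 rose and 0 fell, against 4.35% and 20.4% of all genes on that scale.

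In the RNA-binding list 4 of 21 rose and 3 fell, against 9.87% and 8.98% of all genes. Celf5, a brain-enriched relative of Celf4, rose from 60.1 ± 2.57 to 113 ± 9.18 (log2 0.91, adjusted p = 0.00156). Elavl1, the widely expressed relative of Elavl4, fell from 1209 ± 39.1 to 957 ± 50 (-0.34, adjusted p = 0.00606), with its other probe sets at -0.20 and -0.44 without passing. With no intensity trend the adjusted p of Elavl1 was 0.0984. Ptbp1, a splicing repressor that is low in neurons, fell from 1679 ± 77.3 to 1362 ± 25.2 (-0.30, adjusted p = 0.00806). Under quantile normalization Ptbp1 read -0.18 and did not pass (adjusted p = 0.0689), nor did it with no intensity trend (0.117). That fit also ended the calls of Mapre3 (0.0581), Dync1i2 (0.0509), Dbn1 (0.0599), Kif3a (0.095), Dscam (0.109), Nrp2 (0.097) and Uchl5 (0.0567).

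In the adhesion list 1 of 18 rose and 2 fell, where 9.87% of all genes rose and 8.98% fell. Ntm, a membrane-anchored neurotrimin, rose from 62.6 ± 9.42 to 124 ± 9.12 (0.99, adjusted p = 0.00122). Alcam, an immunoglobulin-family adhesion molecule, fell from 2553 ± 32.8 to 1720 ± 77.4 (-0.57, adjusted p = 7.09e-05) and Dscam from 171 ± 8.53 to 115 ± 24 (-0.60, adjusted p = 0.0197). The call of Dscam ended without control replicate 1 (0.0515) or 3 (0.0746) and without R271W replicate 3 (0.0553). In the guidance list 3 of 32 rose and 0 fell, which were Plxnb1, a semaphorin receptor (0.90), Epha4, an ephrin receptor (0.67), and Nrp2, a co-receptor of semaphorins (0.38). Under median centring Nrp2 read 0.18 (adjusted p = 0.242) and did not pass, nor did it without control replicate 3 (0.0652) or R271W replicate 2 (0.0635). In the remaining list of neuronal and endocrine regulators and ubiquitin hydrolases 3 of 8 rose and 2 fell. The zinc-finger genes St18 and Myt1, which are relatives, rose by 1.10 and 0.86, and Uchl5, a proteasome-bound relative of Uchl1, fell by 0.55. Rest itself lay below the filter on both its probe sets.

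**Figure D4:**
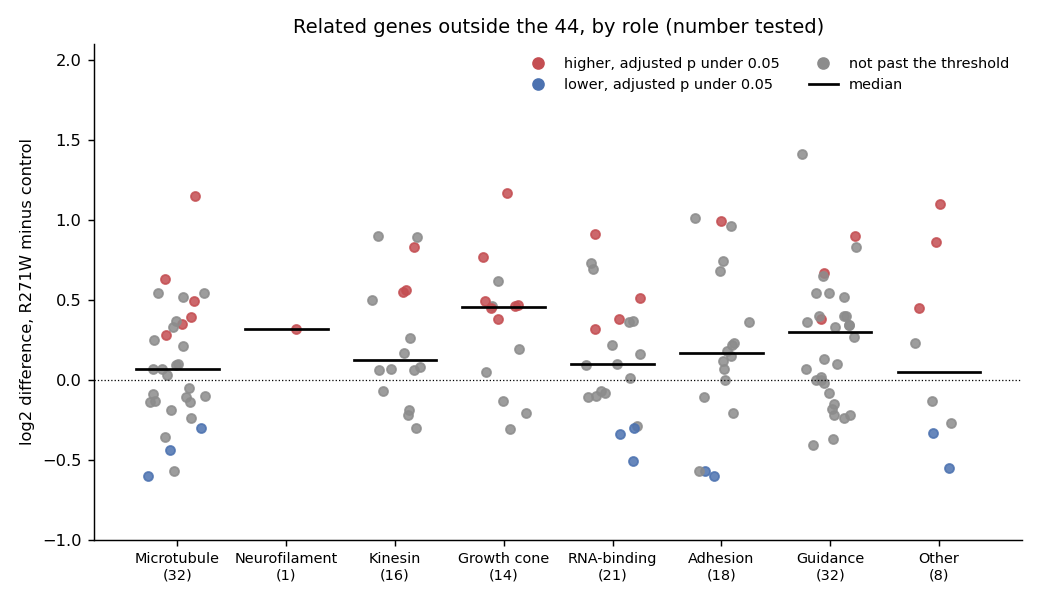
Log2 difference (R271W minus control) of the 142 tested related genes by role, 1 point per gene, with the median of each role as a bar; red marks genes called higher and blue lower. Growth-cone genes have the highest median of the lists with more than 1 gene, 0.46, with 7 red points and no blue one, and RNA-binding and microtubule genes hold both colours.

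The number of the 12 calls that held depended on the scaling and on the fit. Under quantile normalization 10 of the 12 passed, where 9.19% of all genes rose and 8.94% fell. Under 75th percentile centring 10 passed, where 6.81% rose and 12.9% fell. Under median centring 8 passed, with Tubb3, Mapt, Stmn2 and Dpysl2 lost, where 4.35% of all genes rose and 20.4% fell. With no intensity trend 5 passed, where 3.57% of all genes rose and 2.81% fell. Of the 12 calls 0 changed sign under any alternative run. Dclk1, Elavl4, Map2, Nrcam and Cntn1 passed under every alternative, including the fit without the intensity trend and the removal of any single array.

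**Figure D5:**
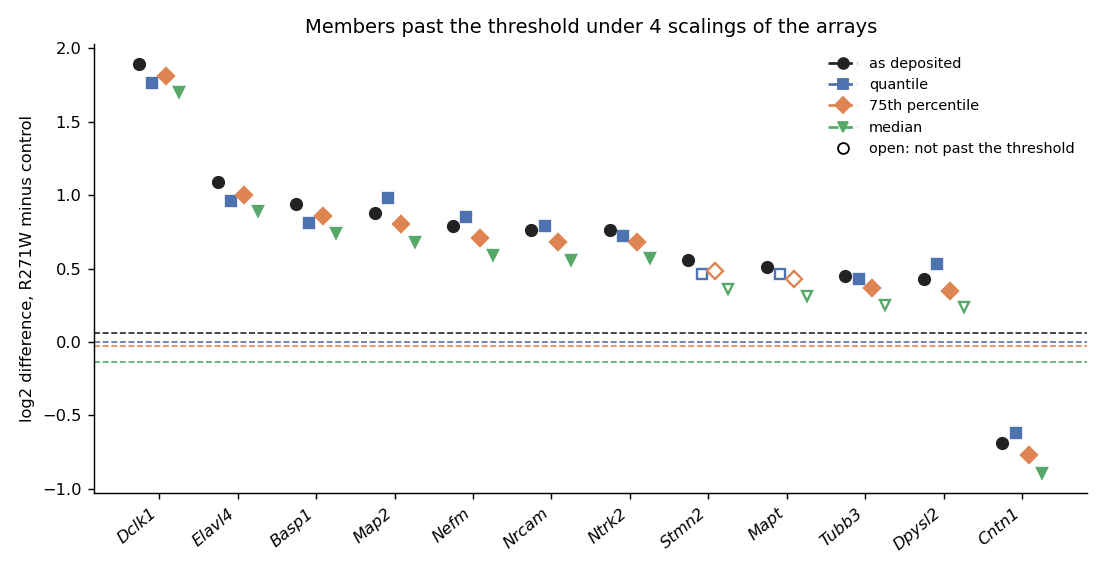
Log2 difference of the 12 genes past the threshold under 4 scalings of the arrays; open symbols did not pass, and dashed lines give the median of all genes under each scaling. Median centring lowers every value and leaves Dclk1 at 1.70 and Cntn1 at -0.89, with open symbols for Stmn2, Mapt, Tubb3 and Dpysl2.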

How the data were processed

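The authors deposited linear intensity values, 1 per probe set, computed with MAS5 according to the submitters' processing notes. Its settings and detection calls were not given in the sources used here. Each array's mean, with 2% trimmed at each end, was 100. Of 31042 non-control probe sets 20826 had 1 symbol in the platform annotation, 436 several and 9780 were not listed. Entrez IDs were matched to RefSeq (GRCr8) for 20758 and changed 0 symbols. The test was limma (version 3.58.1, R 4.3.3) on log2 signals, two-sided, by lmFit and eBayes with intensity trend. P-values were Benjamini-Hochberg adjusted over 18625 probe sets, with a threshold of 0.05. The filter kept mean log2 signals at or above the 40th percentile (signal 11.2). The fit was tested on simulated data. It recovered 20 of 100 probe sets changed by 0.5 on the log2 scale and 50 of 100 changed by 1. Of the 72 it called, 2 were unchanged. A gene that did not pass may therefore still differ. Fewer probe sets were changed in the simulation than were called in the data, so these shares need not hold here. Alternatives changed scaling, filter, low signals, eBayes, array weights, replicate block, probe set or left out arrays.

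The genes, lists and tests were chosen with earlier results of these data known. Values on every array were given for each gene called and for those of the highest mean signal in each role. Some dim genes (Kif5a, L1cam, Ncam1 and Sema3a) were added, chosen after their values were seen. Up to 3 called genes of smallest p were named in each related list. Pooled within-group SDs of log2 signal had a median of 0.109 for 4925 probe sets at signals of 200 or more and 0.285 for 13700 tested ones below. Figures were drawn with matplotlib 3.10.9. Same-numbered arrays did not deviate together (correlations -0.002, 0.01 and -0.02).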

Additional observations from a re-analysis of the deposited data

How the results depend on the processing

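The 12 calls among the 44 genes kept their direction under every alternative run, and 5 of them passed in each. The count of genes that rose moved from 11 to 7 under median centring and to 4 without the intensity trend, and the count that fell was 1 throughout. Leaving out 1 array gave 8 to 12 genes that rose and 1 that fell. Of all 10143 genes, 644 to 842 rose and 656 to 930 fell in those fits. Related genes that rose numbered 13 under median centring, 18 under 75th percentile centring and 10 without the trend, against 28, and 20 to 27 without single arrays. Those that fell numbered 23 and 1 under median centring and without the trend, against 10, and 8 to 11 without single arrays. Over all probe sets 1596 rose and 1344 fell, which became 730 and 3132 under median centring and 634 and 431 without the trend, with 999 to 1350 and 947 to 1330 without single arrays; the low of 999 was without R271W replicate 2. Median centring lowers every log2 difference by the same amount, and the runs without single arrays had fewer samples. The cause of the changed counts was not tested. With the replicate number as a block, 9 genes rose and 1 fell, against 848 and 772 of all 10143 genes. In that fit Mapt (limma adjusted p = 0.0573) and Stmn2 (0.0552) did not pass. Same-numbered arrays did not deviate together, and every pair was below 0.1, so no pairing by number was seen. These correlations cannot show whether same-numbered cultures were handled together, which the labels do not give. Under median centring 7 uncalled values turned below 0, among them Map1b (-0.07), Ina (-0.16), Elavl2 (-0.01) and Rbfox1 (-0.17). Rbfox1 also turned under quantile normalization (-0.11) and 75th percentile centring (-0.06), and Ina under the last (-0.05). Leaving out 1 array also turned Rbfox1, Ina, Elavl3 and Nefl. The values of highest signal in their role that turned were Stmn3 (-0.08 under median centring), Kif5c (-0.02 under quantile normalization and -0.07 under median centring), Celf4 (-0.13 under median centring, -0.02 under 75th percentile centring and -0.01 to 0.16 without single arrays) and Uchl1 (0.08 under quantile normalization and -0.10 to 0.0026 without single arrays). Dim signals limit the 9 genes below the filter and the wide intervals of Elavl2, Elavl3, L1cam and Sema3a.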
